A study of Homo sapiens with 12 samples.

Results

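GFI1 and GFI1B are paralogous zinc-finger repressors that recruit the histone demethylase LSD1, and their transcripts were followed in SET-2 cells with and without an LSD1 inhibitor. The pair was found by Ensembl identifier, with ENSG00000162676 for GFI1 and ENSG00000165702 for GFI1B, and made up 2 of the 63677 genes counted. Both had reads in every library and both passed the filter on low counts. GFI1 lies on the minus strand of chromosome 1 and GFI1B on the plus strand of chromosome 9.

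SET-2 is an established human line that the labels describe as acute myeloid leukemia. WT cells carried wild-type LSD1, and insR cells carried LSD1 with an inserted arginine (Leu659_Asn660insArg), which the labels call drug-resistant. How the insR cells were made, and whether they are 1 clone, is not given in the sources used here. Cells of each genotype were kept for 48 h with 250 nM of the irreversible LSD1 inhibitor GSK-LSD1 or with its vehicle, DMSO at 0.1% (v/v), and each of the 4 groups has 3 libraries. Polyadenylated RNA was sequenced from its 3' ends, with 4837096 to 10141155 reads in genes per library. Levels are given in CPM, a gene's share of all reads in genes, brought to a common total with TMM scaling. The labels do not state that replicates came from separate cultures, and p-values therefore rest on a spread between libraries that may be technical only.

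Both proteins carry a short N-terminal SNAG domain that resembles the tail of histone H3 and binds the active site of LSD1, which brings the CoREST complex to DNA. Their C-terminal zinc fingers bind sites with the core AATC. GFI1 is best known in granulocyte, lymphoid and stem cells, and GFI1B in erythroid cells and megakaryocytes. Both proteins are known to repress their own and each other's genes. Irreversible inhibitors attach to the cofactor of LSD1 in the same pocket that the SNAG domain occupies.

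Because both genes are known targets of these repressors, the sequences before their transcription starts are shown, 5' to 3' on the strand of the gene, with the core AATC or its reverse complement GATT in capitals. They come from RefSeq (GRCh38.p14) and hold the 250 bases before a start. The GFI1 window is chr1:92486926-92487175 on the minus strand, and the GFI1B window is chr9:132978444-132978693 on the plus strand.
GFI1: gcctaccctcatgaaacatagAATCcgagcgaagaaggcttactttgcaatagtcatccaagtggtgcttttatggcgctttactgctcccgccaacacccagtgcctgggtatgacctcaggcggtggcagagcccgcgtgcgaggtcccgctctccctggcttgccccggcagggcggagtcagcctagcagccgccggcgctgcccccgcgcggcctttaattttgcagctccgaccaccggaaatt
GFI1B: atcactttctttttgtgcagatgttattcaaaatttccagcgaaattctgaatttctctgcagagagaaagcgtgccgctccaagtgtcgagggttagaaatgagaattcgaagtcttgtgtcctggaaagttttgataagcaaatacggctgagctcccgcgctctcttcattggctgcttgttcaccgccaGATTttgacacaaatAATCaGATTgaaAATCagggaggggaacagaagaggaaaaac

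RefSeq lists 3 starts for GFI1 and 2 for GFI1B, and the windows shown belong to the first and the second. Motifs were counted on both strands in 300-base windows that reach 50 bases past each start. AATC occurred 1 time in each of the 3 GFI1 windows, and 2 and 4 times in the GFI1B windows. Of all 35114 such windows of 27303 genes, 69% held AATC at least 1 time, 40.2% at least 2 times and 9.95% at least 4 times. In the GFI1B window shown, the 4 cores lay close together, at -57 to -54, -42 to -39, -37 to -34 and -30 to -27, counting the base before the start as -1. AATCA, which contains the core, matched 2 times in each GFI1B window and 1 time in the third GFI1 window. Of all windows 34.5% held it at least 1 time and 10.5% at least 2 times. The longer AATCACNGC matched in none of the 5 windows, against 1.03% of all windows. GATAA, the core bound by GATA factors, matched 1 time, in the GFI1B window shown at -115 to -111, without overlap with AATC, and 22.7% of all windows held it. These matches are letters only, and 3' reads do not show which start was used.

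KDM1A, which encodes LSD1, had mean levels of 265 ± 26.5 CPM (SD, n = 3) without and 217 ± 3.01 CPM with inhibitor in WT cells. In insR cells the means were 109 ± 2.18 CPM without and 106 ± 4.56 CPM with inhibitor. KDM1A was thus lower in insR than in WT libraries under both treatments, by -1.28 (edgeR adjusted p = 7.64e-12) and -1.02 (adjusted p = 1.78e-10) as log2 fold changes. Reads per gene cannot reveal an inserted codon, and the genotype labels were not checked by it.

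GFI1 was at 13.5, 16.3 and 19.5 CPM in the 3 WT DMSO libraries and at 184.9, 175.1 and 191.7 CPM in the 3 treated WT libraries. In insR cells it was at 12.4, 12.5 and 15.6 CPM in DMSO and at 25.9, 22.4 and 20.4 CPM under GSK-LSD1. The 3 treated WT libraries stood far above the other 9, whose values lay within 12.4 to 25.9 CPM. By group mean, GFI1 was highest in WT GSK-LSD1, then in insR GSK-LSD1, WT DMSO and insR DMSO. The lowest insR GSK-LSD1 library lay just above the highest WT DMSO library, and the DMSO groups overlapped. These low values rest on few reads, 76 to 161 per library outside WT GSK-LSD1, where GFI1 had 912 to 1883. The 95% Poisson interval of the value with 76 reads was 9.88 to 15.7 CPM, and such intervals cover counting error only.

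GFI1B was at 85.5, 94.2 and 82.2 CPM in WT DMSO and at 261, 268 and 237 CPM in the treated WT libraries. In insR cells it was at 107, 102 and 106 CPM in DMSO and at 148, 147 and 166 CPM under GSK-LSD1. The 4 groups did not overlap and ran from WT DMSO through insR DMSO and insR GSK-LSD1 up to WT GSK-LSD1. GFI1B had 460 to 2329 reads per library. Its coefficient of variation within a group was 2.43% to 7.11%, against 4.55% to 18.1% for GFI1.

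**Figure D1:**
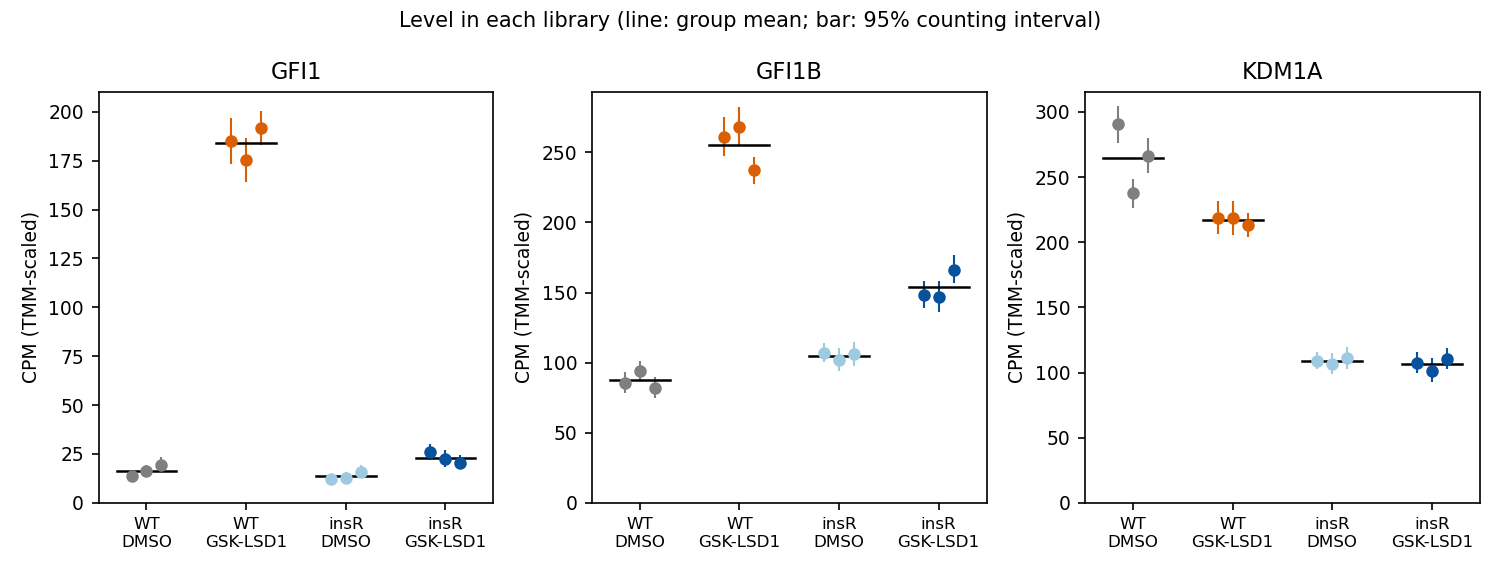
Levels of GFI1, GFI1B and KDM1A (CPM, vertical axes from 0) in each of the 12 libraries by group; points are libraries, bars their 95% Poisson counting intervals and lines the group means. GFI1 stands at 175.1 to 191.7 CPM in the WT GSK-LSD1 libraries and at 25.9 CPM or less in all others, while the 4 groups of GFI1B are separate.

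The first comparison asked how the inhibitor changed both genes in WT cells. GFI1 rose 11.2-fold, with a log2 fold change of 3.48 (SE 0.12, edgeR adjusted p = 1.33e-16). GFI1B rose 2.92-fold, with a log2 fold change of 1.55 (SE 0.08, edgeR adjusted p = 3.44e-13). Both were higher in 3 of 3 treated libraries than in any untreated WT library. This response was broad: 45.2% of the 12864 genes tested were called at an adjusted p below 0.05, with 22.7% called higher, and in 26.5% all treated WT libraries lay above all untreated ones. By log2 fold change GFI1 ranked 82 and GFI1B 480 of 12864 from the top.

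In insR cells the inhibitor also raised both genes, by less. GFI1 rose 1.71-fold, with a log2 fold change of 0.77 (SE 0.14, edgeR adjusted p = 0.00606), and GFI1B 1.47-fold, with 0.55 (SE 0.08, adjusted p = 0.00112). Few genes were called in this comparison: 0.505% of 12864, or 65 genes, of which 31 were higher (0.241%), while 996 had an unadjusted p below 0.05. By p-value GFI1B ranked 9 and GFI1 22. Treated libraries lay above untreated ones without overlap for both genes, as for 7.21% of all genes, while 6.44% lay below. The GFI1 call rested on single libraries: without insR DMSO replicate 1 the edgeR adjusted p was 0.0669 and without insR GSK-LSD1 replicate 1 it was 0.0941, at log2 fold changes of 0.70 and 0.66. The GFI1B call held with each library left out, at an adjusted p of at most 0.0167.

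The response differed between genotypes for both genes. The log2 fold change of GFI1 was lower in insR than in WT cells by -2.71 (SE 0.19, edgeR adjusted p = 1.56e-10) and that of GFI1B by -0.99 (SE 0.12, adjusted p = 1.05e-06). Of all genes 25.1% were called in this test, 11.8% with a negative difference. The insR log2 fold change was 22.2% of the WT one for GFI1 and 35.7% for GFI1B. In CPM, the inhibitor added 167 to the mean of GFI1 and 168 to that of GFI1B in WT cells, and 9.40 and 48.8 in insR cells.

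Without inhibitor the differences between genotypes were small. GFI1 in insR DMSO had a log2 fold change of -0.29 against WT DMSO (SE 0.14, edgeR adjusted p = 0.134), which did not pass the test, and the libraries overlapped. It did pass without WT DMSO replicate 1, at -0.42 (adjusted p = 0.0452). GFI1B was 1.2-fold higher in insR DMSO, with a log2 fold change of 0.26 (SE 0.09, edgeR adjusted p = 0.0198) and no overlap. That call was lost without WT DMSO replicate 1, WT DMSO replicate 3 or insR DMSO replicate 1, at edgeR adjusted p-values of 0.0693, 0.0789 and 0.0609. It was also lost with all libraries thinned to the smallest, at an adjusted p of 0.0636. Of all genes 30.1% were called here, 14.5% higher in insR, and 20.9% lay higher in insR without overlap.

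Under GSK-LSD1 both genes were lower in insR than in WT cells. GFI1 was 8.02-fold lower, with an SE of 0.12 on the log2 scale (edgeR adjusted p = 5.06e-16), and GFI1B 1.66-fold lower, with a log2 fold change of -0.73 (SE 0.08, adjusted p = 5.46e-08). Neither gene overlapped between the groups. The background was again broad, with 54.5% of all genes called, 27% higher and 27.5% lower in insR cells, and 30.4% lower without overlap. The comparisons share groups of libraries, so their values are not independent of each other.

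**Figure D2:**
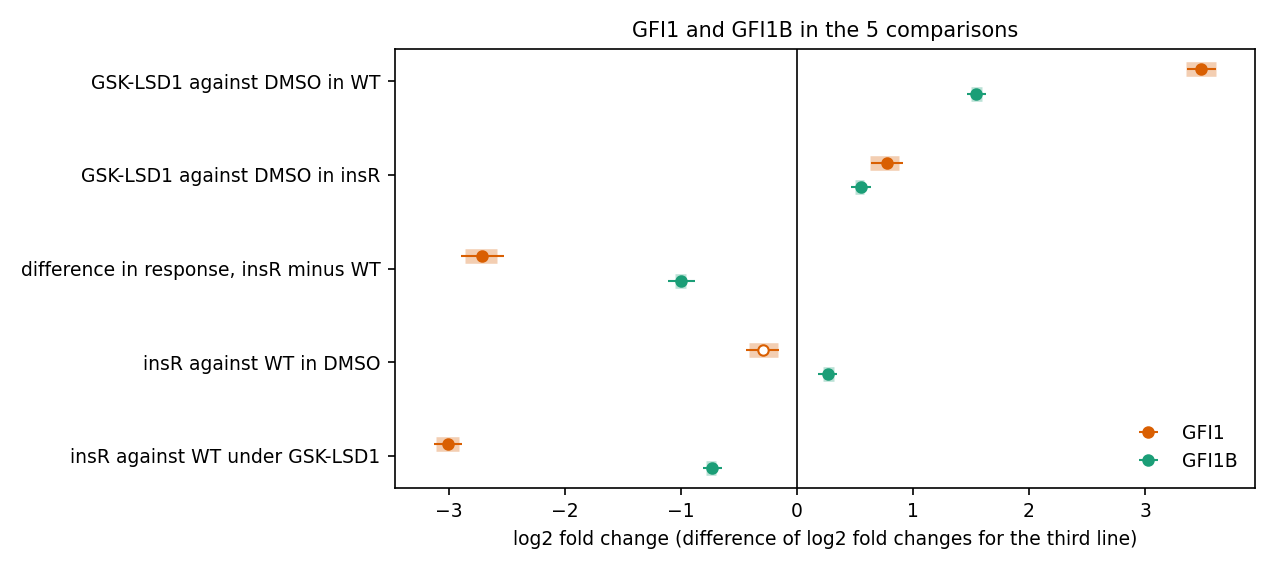
Log2 fold changes of GFI1 and GFI1B (horizontal axis) in the 4 comparisons of groups, and the difference between the insR and WT responses; bars are SEs, pale bands the range over all alternatives tried, and an open point is a gene not called. GFI1 in insR against WT in DMSO, at -0.29, is the open point.

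The balance between the genes was followed as a share of reads. Of the reads of both genes together, GFI1 held 13.7% to 19.2% in untreated and 39.5% to 44.7% in treated WT libraries. In insR cells it held 10.4% to 12.9% in DMSO and 10.9% to 14.9% under GSK-LSD1. The log2 ratio of GFI1 to GFI1B reads was 1.94 higher in treated than in untreated WT libraries without overlap, and differed by 0.21 with overlap in insR cells. It differed by -0.54 between insR and WT in DMSO and by -2.27 under GSK-LSD1, both without overlap. The exact two-sided permutation test gave p = 0.1 for the comparisons without overlap, the smallest p that 3 against 3 libraries allow, and 0.3 for the insR response (adjusted over 4 comparisons, 0.133 and 0.3). This exact test cannot reach 0.05 with 3 libraries against 3. A ratio of reads from different transcript ends gives a change in balance and not the relative number of molecules.

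The labelled cell type was set against markers of blood lineages. Erythroid markers were strongly expressed: their summed level was 3177 to 3298 CPM in untreated and 727 to 743 CPM in treated WT libraries. In insR libraries it was 6010 to 6914 CPM without and 4926 to 5474 CPM with inhibitor. Of the 13 listed genes, all tested, 12 were called lower and 0 higher in treated WT cells (all genes: 22.5% and 22.7%). Megakaryocyte markers summed to 1089 to 1197 CPM in untreated and 1390 to 1607 CPM in treated WT libraries, with 7 of 13 tested and the defining PF4 and GP1BB at 0 in all libraries. That sum holds opposite changes, 1 marker called higher and 3 lower (all genes: 22.7% and 22.5%). ITGA2B, named like the next markers after its values were seen, went from 735 to 1182 CPM, while GP6 went from 15.5 to 1.91 CPM, TUBB1 from 7.37 to 0.62 and GP9 from 9.63 to 3.08. Monocyte markers summed to 105 to 129 CPM in untreated and 281 to 308 CPM in treated WT libraries, with S100A8 and FCN1 at 0. Of these 12 markers 4 were tested, with 3 called higher and 0 lower (all genes: 22.7% and 22.5%). Progenitor markers summed to 1041 to 1195 CPM and 1396 to 1524 CPM in the same groups, with 4 of 6 tested. CD34 and CD33 were called higher, from 295 to 696 and from 55.6 to 119 CPM, and KIT lower, from 407 to 253 CPM. That is 2 of 4 higher and 1 lower (all genes: 22.7% and 22.5%). Mast cell, basophil and eosinophil markers summed to 1193 to 1215 CPM in untreated and 1516 to 1579 CPM in treated WT libraries. Of the 7 tested, 3 were called higher and 1 lower (all genes: 22.7% and 22.5%). Lymphoid markers summed to 23.7 to 27.3 and 37.1 to 40.5 CPM, non-blood markers to 12.1 to 13.3 and 22.5 to 24.6 CPM, and neutrophil markers to 0.702 to 0.938 and 4.80 to 6.43 CPM. The share of uniquely aligned reads outside genes was 16.3% to 16.7% in untreated and 18.4% to 19.5% in treated WT libraries, and the mitochondrial share of reads 2.93% to 3.55% and 3.97% to 4.54%. These levels moved with GFI1 and GFI1B in WT cells, and their part in the result was not tested. In bulk RNA, fewer cells of a type and less RNA per cell cannot be told apart.

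Other genes of this repressor system were followed in lists by role, without GFI1 and GFI1B in the counts. The median log2 fold change of all genes tested lay between -0.01 and 0.01 in each of the 5 comparisons. The shares of all genes called are repeated beside the counts of each list. The first is the SNAG-domain family, transcription factors with the same LSD1-binding motif. Of 9 such genes 7 had reads and only SNAI1 and SNAI3 passed the filter on low counts, while SNAI2, SCRT2, INSM1, OVOL1 and OVOL2 did not and SCRT1 and INSM2 had no read. SNAI1, a repressor of epithelial genes, was at 2.51 ± 0.634 CPM without and 1.23 ± 0.463 CPM with inhibitor in WT cells (SD, n = 3), a log2 fold change of -1.13 (edgeR adjusted p = 0.0344). SNAI3 was at 1.94 ± 0.331 and 3.75 ± 0.865 CPM, a log2 fold change of 0.94 (edgeR adjusted p = 0.0375). So 1 of 2 was called higher and 1 lower in treated WT cells (all genes: 22.7% and 22.5%). The SNAI1 call was lost in 6 of 18 alternatives, 4 of them the omission of any single WT library other than WT DMSO replicate 3 and WT GSK-LSD1 replicate 2, with adjusted p up to 0.192. The SNAI3 call was lost in 9 of 18, the same omissions among them, with adjusted p up to 0.139. In insR cells 0 of 2 were called under the inhibitor by edgeR, DESeq2 or limma, where edgeR called 0.505% of all genes. Of these 2, 0 had an unadjusted p below 0.05. SNAI1 was higher in insR cells in DMSO, at 7.99 ± 3.02 CPM, a log2 fold change of 1.60 (edgeR adjusted p = 0.000308). It was the 1 of 2 called there, with 0 lower (all genes: 14.5% higher and 15.6% lower). Under GSK-LSD1 SNAI1 was higher by 2.79 and SNAI3 lower by -1.22, 1 of 2 in each direction (all genes: 27% and 27.5%). SNAI2 had 0 reads in all 6 insR libraries and 11 and 34 in the WT groups. Against a limit of 3 counts per group it was 4.22-fold lower in DMSO and 9.75-fold lower under GSK-LSD1. These folds leave out the counting error of the WT reads.

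The list of the LSD1 and CoREST corepressor, which includes the LSD1 paralog KDM1B, holds 15 genes, all tested. In WT cells 2 were called higher under the inhibitor and 2 lower (all genes: 22.7% and 22.5%), with a median log2 fold change of 0.01. That is 4 of 15, against 45.2% of all genes. PHF21A, a histone-reading subunit, rose by 0.69 (edgeR adjusted p = 1.59e-05), and KDM1B, the LSD1 paralog, fell by 0.74 (adjusted p = 3.15e-05). KDM1A fell by 0.29. HMG20B, a DNA-binding subunit, rose by 0.31, a call lost in 5 of 18 alternatives, 4 of them the omission of replicate 1 or 2 of WT DMSO or of replicate 1 or 3 of treated WT cells. In insR cells 0 of 15 were called by edgeR, DESeq2 or limma and 0 had an unadjusted p below 0.05, where 0.505% of all genes were called. The response differed for 2 of 15 (all genes: 25.1%), KDM1B by 0.76 and PHF21A by -0.62. In DMSO 2 were higher and 5 lower in insR cells (all genes: 14.5% and 15.6%), with KDM1B at -1.55, the zinc-finger partner ZMYM2 at -1.09 and the scaffold RCOR1 at 0.70. Under GSK-LSD1 1 was higher and 6 lower (all genes: 27% and 27.5%), with ZMYM2 at -1.22, PHF21A at -0.87 and RCOR1 at 0.87. The list medians were 0.01 in treated insR cells, 0.09 for the difference, -0.18 in DMSO and -0.21 under GSK-LSD1.

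Of 18 other proteins known to bind or modify GFI1 or GFI1B, 17 were tested and TLE1 was not. In WT cells 4 were called higher and 5 lower under the inhibitor (all genes: 22.7% and 22.5%), with a median of 0.04. RUNX1T1, a corepressor known from leukemia fusions, rose from 57.9 ± 5.48 to 147 ± 2.92 CPM (SD, n = 3), a log2 fold change of 1.35 (edgeR adjusted p = 4.17e-12). TLE3, a Groucho-type corepressor, rose by 0.53. ARIH2, a ubiquitin ligase, fell by 0.88, and PRMT1, an arginine methyltransferase, by 0.50. In insR cells 0 of 17 were called by edgeR, where 0.505% of all genes were, and 1 had an unadjusted p below 0.05. RUNX1T1 there had a log2 fold change of 0.32 (edgeR adjusted p = 0.064), which passed in 3 of 18 alternatives, and DESeq2 called it at 0.03. The difference in response was called for 5 of 17 (all genes: 25.1%), among them RUNX1T1 at -1.02, ARIH2 at 0.78, RBBP7 at 0.53 and TLE3 at -0.51. In DMSO 1 was higher and 2 lower in insR cells (all genes: 14.5% and 15.6%): RUNX1T1 at 1.40, the methyltransferase SMYD2 at -2.09, and the histone chaperone RBBP7 at -0.27. The RBBP7 call (edgeR adjusted p = 0.0445) was lost in 7 of 18 alternatives, among them the omission of replicate 1 or 2 of either DMSO group. Under GSK-LSD1 5 were higher and 5 lower in insR cells (all genes: 27% and 27.5%), with ARIH2 at 0.96, TLE3 at -0.69, RUNX1T1 at 0.38 and SMYD2 at -0.99. Beyond the WT response, the list medians were 0.02 in treated insR cells, -0.05 for the change in response, -0.07 in DMSO and -0.07 under GSK-LSD1.

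Of 21 transcription factors reported at GFI1 or GFI1B regulatory regions, all tested, 8 were called higher and 6 lower in treated WT cells (all genes: 22.7% and 22.5%), with a median of 0.08. RUNX1, a master regulator of blood stem cells, rose from 135 ± 3.9 to 334 ± 6.05 CPM (SD, n = 3), a log2 fold change of 1.31 (edgeR adjusted p = 6.43e-13). The ETS factor ERG rose by 1.43, SPI1, the myeloid factor PU.1, by 1.13 and FLI1, another ETS factor, by 0.68. In insR cells 0 of 21 were called by edgeR, where 0.505% of all genes were, and 3 had an unadjusted p below 0.05. ERG there had a log2 fold change of 0.36 (edgeR adjusted p = 0.17). It was called in 1 of 18 alternatives, with a filter of 1 count (edgeR adjusted p = 0.0318). The response differed for 7 of 21 (all genes: 25.1%), with RUNX1 at -1.33, ERG at -1.06, FLI1 at -0.66 and GATA1, the erythroid GATA factor, at 0.62. In DMSO 2 were higher and 5 lower in insR cells (all genes: 14.5% and 15.6%), with IKZF1 at -0.86, FLI1 at -0.55 and HMGB2 at 0.41. CBFA2T3, a corepressor of the RUNX1T1 family, had 963 and 880 reads in the WT groups and 0 in both insR groups. Against a limit of 3 counts per group it was 369-fold lower in DMSO and 252-fold lower under GSK-LSD1. Under GSK-LSD1 7 were higher and 9 lower in insR cells (all genes: 27% and 27.5%), with RUNX1 at -1.22, FLI1 at -1.20 and ERG at -1.18. Medians for these factors were -0.02 in the insR response, 0.02 for the difference, 0.08 in DMSO and -0.20 under GSK-LSD1.

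Genes reported as targets of GFI1 or GFI1B moved in both directions. Of 51 listed genes 47 had reads and 39 were tested, and 7 of the 51 also stand among the 21 factors above. In WT cells 15 of 39 rose and 10 fell (all genes: 22.7% and 22.5%), with a median of 0.06. ID3, an inhibitor of helix-loop-helix factors, rose from 28.6 ± 4.81 to 185 ± 29.9 CPM (SD, n = 3), a log2 fold change of 2.68 (edgeR adjusted p = 2.54e-13). ITGAM, the integrin CD11b of myeloid cells, rose by 1.80, while KLF1, an erythroid activator, fell by 0.92. In insR cells 1 rose and 1 fell (all genes: 0.241% and 0.264%). ITGAM rose from 17.2 ± 3.22 to 29.7 ± 3.62 CPM, a log2 fold change of 0.82 (edgeR adjusted p = 0.00425, and 0.0658 without insR DMSO replicate 1). Its rise was smaller than in WT cells, with a difference in response of -0.98 (edgeR adjusted p = 0.000605). EGR1, an immediate-early factor, fell from 66 ± 3.79 to 23.3 ± 4.69 CPM, by 1.49 (adjusted p = 0.000386). EGR1 also fell in WT cells, from 13.1 ± 3.61 to 4.59 ± 2.18 CPM, by 1.58 (edgeR adjusted p = 8.13e-05), and its difference in response of 0.08 (SE 0.33) did not pass the test (adjusted p = 0.879).

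The response of the target list differed between genotypes for 13 of 39 genes, 4 with a positive and 9 with a negative difference (all genes: 13.3% and 11.8%). ID3 differed by -2.19, KLF1 by 0.89 and ID2, another inhibitor of helix-loop-helix factors, by 0.80. In DMSO 12 were higher and 8 lower in insR cells (all genes: 14.5% and 15.6%), with EGR1 at 2.32, CDKN1A, a cell cycle inhibitor, at 2.15, ETS2 at -0.85 and IKZF1 at -0.86. Under GSK-LSD1 15 were higher and 17 lower (all genes: 27% and 27.5%), with ID3 at -3.30, BCL11A, a repressor of fetal globin, at -1.57, ID2 at 1.15 and KLF1 at 1.02. The medians over the targets were -0.01 in treated insR cells, -0.07 for the change in response, 0.11 in DMSO and 0.05 under GSK-LSD1.

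Some targets were at 0 in whole groups and are given as reads. Folds set the group at 0 to a limit of 3 counts and leave out the counting error of the other group. CSF1R and ELANE did not pass the filter on low counts and were not tested. CSF1R, a monocyte receptor, had 0 reads in untreated and 25 in treated WT cells, 7.69-fold higher against that limit. In insR it had 0 and 6, 2.47-fold higher on few reads. CEBPE, a granulocyte factor, had 0 in WT DMSO, 15 in WT GSK-LSD1 and 64 in insR DMSO. These were 4.62-fold and 18.5-fold higher than the limit for WT DMSO. ELANE, neutrophil elastase, had 0 in both WT groups and 42 and 11 in insR, 12.2-fold and 4.26-fold higher. CEBPA, a myeloid factor, had 7 and 49 reads in WT and 0 and 2 in insR, 2.69-fold lower in DMSO on few reads. HMGA2, a chromatin protein, had 89 reads in WT GSK-LSD1 and 0 in insR GSK-LSD1, 25.5-fold lower.

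**Figure D3:**
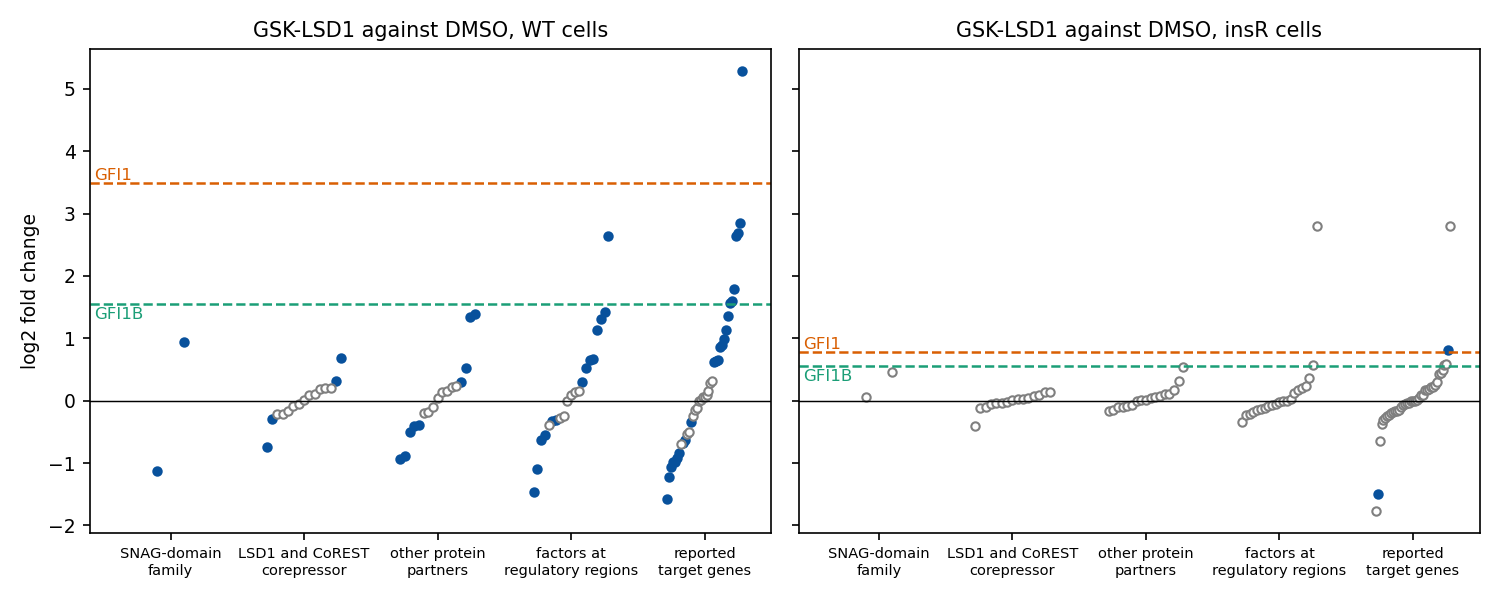
Log2 fold changes under GSK-LSD1 (vertical axis) of the tested genes of the 5 lists in WT (left) and insR cells (right), sorted within each list; filled points were called, open points were not, and dashed lines mark GFI1 and GFI1B. In WT cells points spread to both sides of 0 in each list, and in insR cells ITGAM and EGR1 are the filled points; a fitted value of a gene with a group at 0, such as CEBPA, depends on the prior count.

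Neighbouring genes were compared with GFI1 and GFI1B, taking 3 protein-coding genes on either side in the GENCODE order. Of these 12 genes 9 were tested, and C1orf146, FAM69A and AK8 were not. Under the inhibitor in WT cells 6 of 9 were called, all higher, against 22.7% of all genes called higher. RPAP2, an RNA polymerase phosphatase gene that faces GFI1 tail to tail, rose from 15.4 ± 0.82 to 51.6 ± 3.16 CPM (SD, n = 3), a log2 fold change of 1.75 (edgeR adjusted p = 1.55e-10). GLMN, next beyond it, rose from 18.2 ± 1.72 to 40.1 ± 2.71 CPM, by 1.15 (adjusted p = 2.05e-07). On the other side EVI5 rose by 0.80 and the ribosomal protein gene RPL5 by 0.29. All 6 changes were smaller than that of the gene they flank.

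Next to GFI1B, TSC1 rose by 0.34 and GTF3C5 by 0.39 in WT cells, both with small changes. The TSC1 call had an edgeR adjusted p of 0.0525 without WT GSK-LSD1 replicate 1, and that of GTF3C5 0.0583 without WT DMSO replicate 1. CEL was not called, at 0.81 (adjusted p = 0.0695), nor were SPACA9 and RALGDS. TSC1 overlaps GFI1B on the opposite strand in GENCODE 29, and no source used here gives the strand setting of the counting, and reads in the overlap could belong to either gene. No annotated gene overlaps GFI1.

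In insR cells 0 of the 9 neighbours were called by edgeR, DESeq2 or limma, where edgeR called 0.505% of all genes. Of the 9, 2 had an unadjusted p below 0.05. RPAP2 there had a log2 fold change of 0.57 (edgeR adjusted p = 0.0752) and GLMN of 0.56 (adjusted p = 0.078). The response differed for 2 of 9 (all genes: 25.1%), RPAP2 by -1.18 (edgeR adjusted p = 8.83e-05) and GLMN by -0.58 (adjusted p = 0.0309). The GLMN difference was lost in 8 of 23 alternatives, 6 of them the omission of a single library: replicate 2 or 3 of WT DMSO, replicate 3 of WT GSK-LSD1, replicate 1 of insR DMSO, and replicate 1 or 3 of treated insR cells. In DMSO 2 of 9 were called (all genes: 30.1%), TSC1 at -0.36 and CEL at -1.71. Without insR DMSO replicate 2 the TSC1 call had an edgeR adjusted p of 0.0804. Under GSK-LSD1 8 of 9 were lower in insR than in WT cells, against 27.5% of all genes. Of these calls, RALGDS at -0.35 (edgeR adjusted p = 0.0364) was lost without replicate 1 or 2 of either treated group, with adjusted p up to 0.126. RPL5 at -0.25 (adjusted p = 0.0132) was lost without replicate 3 of treated WT cells or replicate 1 or 2 of treated insR cells, with adjusted p up to 0.0614.

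**Figure D4:**
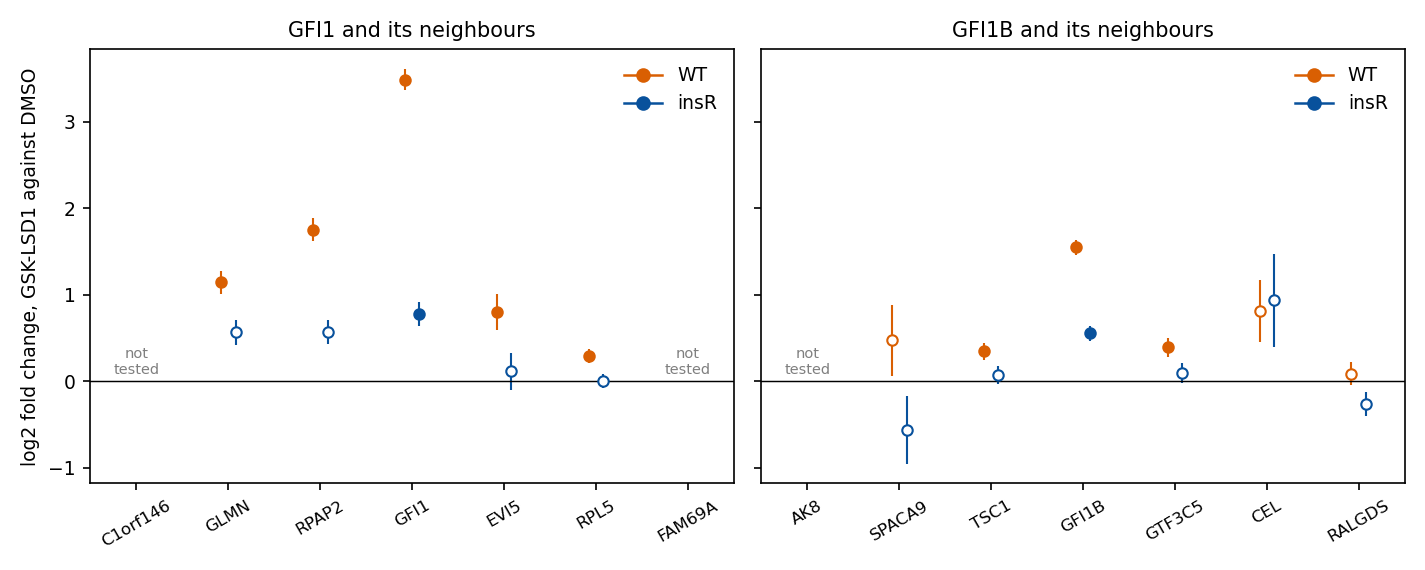
Log2 fold changes under GSK-LSD1 (vertical axis) of GFI1, GFI1B and the 3 protein-coding genes on either side of each, in genome order along the horizontal axis, which is not to scale; bars are SEs, filled points were called and open points were not. GFI1 at 3.48 and RPAP2 at 1.75 are the 2 highest WT points of the GFI1 panel.

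The genes whose pattern over the 12 libraries was most like each member were ranked by Pearson's r of log2 CPM among 11284 protein-coding genes, as a description. For GFI1 they were ZNF521 (0.993), AKAP13 (0.990), SPTBN1 (0.989), SPTAN1 (0.987) and CETP (0.986). For GFI1B they were CA8 (0.985), CD34 (0.984), GAD1 (0.981), DAGLB (0.977) and RPP25 (0.971). The r between GFI1 and GFI1B was 0.907, which placed GFI1B at rank 482 for GFI1, and GFI1 at rank 131 for GFI1B. ZNF521, a zinc-finger gene of blood progenitors, went from 47.8 ± 2.57 to 178 ± 13.3 CPM (SD, n = 3) with the inhibitor in WT cells, and had 44.1 ± 1.77 and 52.4 ± 2.67 CPM in insR cells. CD34, the progenitor surface marker, was at 295 ± 14.8 and 696 ± 22.1 CPM in WT cells and at 370 ± 2.36 and 446 ± 10.4 CPM in insR cells. As for GFI1B, the insR DMSO mean of CD34 lay above the WT DMSO mean and below both treated means. The points share 4 groups, so r mainly reflects the differences between the group means. By Spearman's rho 0 of the 5 genes for GFI1 and 1 of the 5 for GFI1B stayed among the first 5.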

How the data were processed

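The 12 libraries form 4 groups of 3, read from the sample titles. Libraries were made with a QuantSeq 3' forward kit from polyadenylated RNA, per the labels' protocols. The submitters' processing notes name bcl2fastq 2.2, STAR 2.6.0c, HTSeq 0.9.1, DESeq2 and the build hg19. They give neither the annotation release nor the strand setting. The authors deposited unnormalized whole-read counts for each gene. Their deposited normalized signal is the same counts over a per-library size factor: 100% of nonzero values came back as whole reads (tolerance 0.01), with 0 genes unequal to their count. Of 63677 genes 52181 had a symbol and 27370 a read. Entries that name no gene were left out: not-unique alignments were 57.9% to 62.6% of each table's total, reads outside genes 13.7% to 19.5% and ambiguous reads 1.68% to 1.86% of unique reads. A count of 0 allows up to 3 counts, worth 0.296 to 0.62 CPM. No 2 replicates agreed within sampling noise, with chi-square per degree of freedom of 2.90 to 7.77.

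All 12 libraries entered 1 quasi-likelihood fit (edgeR 4.0.16, robust, R 4.3.3) after TMM scaling and filterByExpr. P-values were adjusted by Benjamini-Hochberg over 12864 genes and called below 0.05. The ratio of GFI1 to GFI1B reads, with 0.5 added to each, had an exact permutation test (scipy 1.17.1). Lists got counts and medians only. Folds against a group at 0 use 3 counts over the group and leave out the counting error of the other group. The fits were tested on simulated data. GENCODE names and gene order were used without coordinates, since its build is later than hg19. The members and lists were chosen with earlier results of these data known. Named genes were KDM1A, up to 4 called list members of lowest p per comparison, list members with a group at 0 and at least 1 CPM in another, all SNAG-family members, 3 neighbours per side and the 5 most similar genes; an item that this rule names is not reported here. Alternatives were DESeq2 size factors, upper-quartile and library-total scaling, filters of 1 count or of 10 counts in every library of a group, DESeq2 1.42.0, limma-voom, limma-trend (limma 3.58.1, log2 of the authors' normalized signal with 1 added), no robust step, a replicate block, only the groups compared, thinned libraries and each library left out. Plots used matplotlib 3.10.9.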

Additional observations from a re-analysis of the deposited data

Results flagged for a closer look

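These 17 genes had a drug response that differed between genotypes by edgeR's interaction test at an adjusted p below 0.05, as did 25.1% of all genes tested. Other genes named above passed it too, among them ITGAM at -0.98, BCL11A at -0.73 and SMYD2 at 1.10. The SMYD2 call was lost in 8 of 23 alternatives. The values are insR minus WT differences of log2 fold changes. The differences were -2.71 for GFI1 and -0.99 for GFI1B. In the corepressor and partner lists KDM1B, the LSD1 paralog, was at 0.76, ARIH2 at 0.78 and RBBP7 at 0.53. Negative differences in the same lists were PHF21A at -0.62, RUNX1T1 at -1.02 and TLE3 at -0.51. Among factors at the regulatory regions RUNX1 was at -1.33, ERG at -1.06, FLI1 at -0.66 and GATA1 at 0.62. Of the reported targets ID3 was at -2.19, ID2 at 0.80 and KLF1 at 0.89. Of the neighbours RPAP2 was at -1.18 and GLMN at -0.58, and the GLMN call was also lost in 8 of 23 alternatives. Groups of 3 libraries are too small for a test of single outlying libraries.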

How the results depend on the processing

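GFI1 and GFI1B kept their direction in all 5 comparisons under every alternative run, and kept their side of the threshold in 183 of 190 settings. GFI1 ranged from 3.36 to 3.61 for the WT response and from 0.63 to 0.88 for the insR response, with edgeR, DESeq2 or limma adjusted p of 4.27e-05 to 0.0941. GFI1B ranged from 1.5 to 1.60 and from 0.50 to 0.58. The difference in response ranged from -2.86 to -2.59 for GFI1 and from -1.05 to -0.96 for GFI1B. For insR against WT in DMSO, GFI1 ranged from -0.42 to -0.17 (adjusted p 0.0452 to 0.49) and GFI1B from 0.22 to 0.32 (0.0164 to 0.0789). Under GSK-LSD1 the ranges were -3.11 to -2.91 and -0.78 to -0.70.

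With libraries left out 1 at a time, the insR response of GFI1 was 0.66 to 0.88 and called in 4 of 6 cases. GFI1 in insR against WT in DMSO was -0.42 to -0.17, and GFI1B there was 0.23 to 0.32 with 3 of 6 cases called. With libraries thinned to the smallest, GFI1B was at 0.22 and not called. The number of genes called in the insR response, 65, was 118 with a filter of 1 count, 39 with limma-trend and 28 to 45 with a library left out. The cause was not tested. The log2 ratio of GFI1 to GFI1B kept its direction in 32 of 32 settings. Counts of list members called moved by over 1.5 times, or to or from 0, in 23 of 475 settings, and counts of all genes called, which were lower than with all 12 libraries in every case with a library left out, did so in 7 of 95. Replicate numbers gave no clear pairing of the libraries: deviations of same-numbered libraries correlated at -0.17 to 0.20 over 18 pairs. Those of different numbers correlated at -0.31 to 0.29 over 36 pairs. In every other group at once, 0 libraries correlated best with their own number, though some did in single groups. With the replicate block GFI1 was at 3.48 and GFI1B at 1.55 for the WT response, and no call of either gene changed, while SNAI3 lost its WT call (adjusted p = 0.0528) and the number of genes called was 5818 for the WT and 60 for the insR response. Depth limits GFI1, whose counting error alone gives a coefficient of variation of 10.1% in WT DMSO and 10.4% in insR DMSO.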
